A study of Rattus norvegicus with 34 samples.

Results

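Liver gene expression was compared between untreated male F344 rats of 24 months and of 18 months, with 4 rats at each age and a separate array for every rat. These 8 arrays are all those of the series whose source label gives F344 liver of either age, out of 34 arrays in all. F344 is an inbred rat strain widely used in ageing research. The study asked how the enzymes that metabolise foreign compounds change with age in male rats, and its other arrays held F344 livers of 6 and 11 months (4 each) and Brown Norway livers of 4, 12 and 24 months (at each age 3 controls and 3 rats dosed with toluene). The F344 rats received no dose and stayed with their supplier until 1 week before they were killed, and the Brown Norway controls used below were untreated males of another inbred strain that were housed singly. The values were linear probe set signals from a whole-genome rat array.

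Many liver genes of the rat are sex-dependent. Pituitary growth hormone reaches the male liver in pulses and the female liver in a more even stream, and the pulses keep genes such as Cyp2c11 on and genes such as Cyp2c12 off through the transcription factor STAT5B. Other liver genes follow the circadian clock, in which BMAL1 with CLOCK or NPAS2 drives the repressors NR1D1 and NR1D2 and the output factors DBP and TEF, and these feed back on metabolism over the day.

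The 8 arrays were alike in overall signal. The median probe set signal was 45.5 to 47.1 and the share of probe sets brighter than 32, the floor to which lower signals were raised, was 59.7% to 61.1%. Among 17 hepatocyte markers the summed signal was 99625 to 102144 at 24 months and 96544 to 103552 at 18 months, so both groups had the defining transcripts of liver. The GAPDH ratio (3' over 5' probe sets), a sign of RNA integrity, was 1.38 to 2.17 at 24 months and 1.31 to 5.31 at 18 months, where replicate 4 held the highest value. The same ratio for beta-actin was higher, at 5.6 to 10.6 at 24 months and 5.15 to 18.8 at 18 months, highest again on replicate 4 of 18 months. Counts were repeated without the 5 F344 arrays of GAPDH ratio above 2.5, which include that array, and with the GAPDH ratio as a covariate. The beta-actin ratio was not used in these repeats.

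Between 24 and 18 months 162 of 9206 tested genes passed limma's test at an adjusted p under 0.05, which is 1.76% of genes. Of these 81 were higher (0.88%) and 81 were lower (0.88%) at 24 months, and 73 changed at least 2-fold, 31 higher and 42 lower. The median log2 fold change of all tested genes was -0.0048. The 4 signals of 24 months lay outside the range of the 4 of 18 months for 154 of the 162 genes (7.68% of all genes tested), which is no separate evidence because the same arrays gave the calls. Of the 162 genes, 52 belonged to the 42 lists of liver functions and cell types described below and 110 to none. Leaving out the 5 arrays of high GAPDH ratio gave 93 passing genes, and 71 of those genes were among the 162. The ratio as a covariate gave 252, with all 162 among them. Fitting only the 8 arrays gave 65 and array quality weights gave 629. Of the arrays of 24 months, leaving out single ones moved the count to 69 without replicate 2, 79 without replicate 1, 86 without replicate 4 and 249 without replicate 3. Of the 18-month arrays, leaving out replicate 3 gave 84, replicate 1 gave 85 and replicate 4 gave 100.

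**Figure D1:**
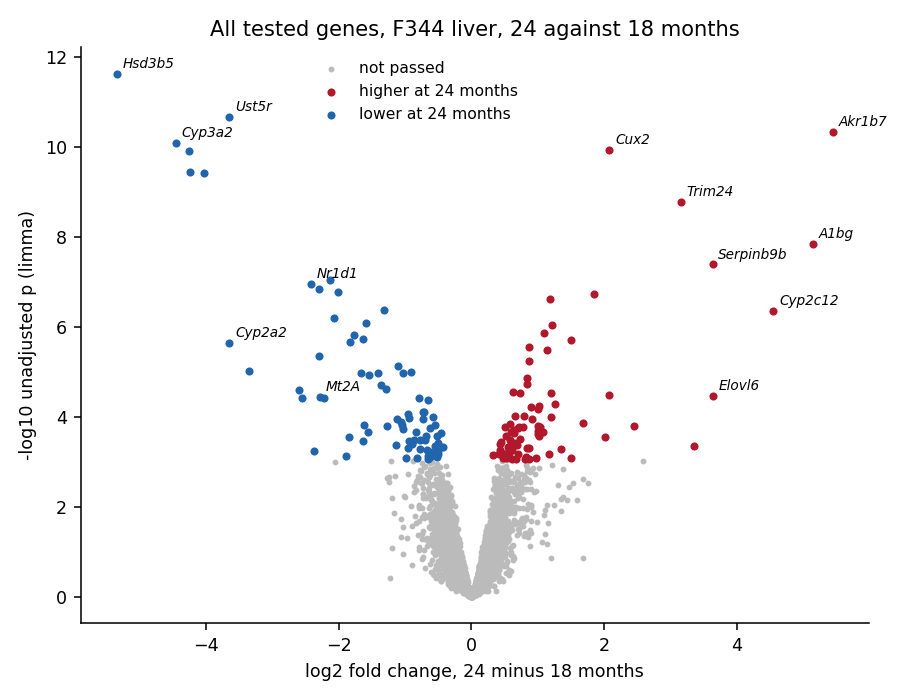
Each point is a tested gene, with the log2 fold change of 24 minus 18 months on the horizontal axis and -log10 of the unadjusted limma p on the vertical axis. Red points passed higher and blue points passed lower at 24 months, 81 of each, and the male- and female-pattern genes stand at the far left and far right.

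Genes that are more active in male than in female rat liver made up 7 of the 12 largest falls without overlap. Of 13 measured members of the male-dominant list 10 fell, 0 rose and 3 did not pass, against 0.88% of all genes that fell. Their median log2 fold change was -2.56, against -0.0048 for all genes tested. Hsd3b5, a male-specific steroid dehydrogenase of the rat liver, had signals of 50.6, 37.9 and 71.2 and a value below the floor at 24 months, against 2391, 1914, 966 and 2719 at 18 months. The groups did not overlap, and the fall was at least 40.7-fold (-5.35 on the log2 scale, SE 0.29, and an adjusted p of 2.12e-08).

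The male-specific cytochromes P450, haem enzymes that hydroxylate steroids and drugs, fell as well. Cyp2c11, the main male-specific P450 of rat liver, had signals of 548, 208, 387 and 120 at 24 months, against 4979, 4836, 4376 and 6579 at 18 months. All 4 old livers lay far under the lowest 18-month liver, a fall of 19.0-fold (-4.25 on the log2 scale, SE 0.32, and an adjusted p of 4.27e-07). Cyp3a2, a steroid 6β-hydroxylase, had signals of 219, 210, 542 and 117 at 24 months, against 5476, 5583, 4062 and 5490 at 18 months. Again no array overlapped, with a fall of 22.0-fold (-4.46 on the log2 scale, SE 0.30, and an adjusted p of 1.83e-07). Cyp2a2, a testosterone hydroxylase of males, had signals of 328, 62.0, 776 and 120 at 24 months, against 2815, 2567, 1872 and 3502 at 18 months. Its 24-month values spread over more than 10-fold while all stayed under the 18-month range (log2 fold change -3.65, SE 0.51, adjusted p = 0.000729). Cyp2c13 showed the same wide spread, with 1485, 387, 2842 and 361 at 24 months against 5228, 5183, 4553 and 5769 at 18 months (log2 fold change -2.56, SE 0.46, adjusted p = 0.00655). Its call was lost with only the 8 arrays in the fit and without the arrays of high GAPDH ratio (adjusted p up to 0.11), and that of Cyp2a2 with only the 8 arrays (adjusted p = 0.0539). The probe set of Cyp2c13 may also read related P450s, since its suffix marks transcripts that share probes. Cyp3a18 was 3.0-fold lower (1193 ± 440 at 24 months and 3426 ± 431 at 18 months, SD, n = 4 each).

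The other male-dominant members that fell carry out steroid conjugation, carbon dioxide hydration and the transport of small hydrophobic ligands. Sult1e1, which sulfates and so inactivates estrogens, had signals of 472, 173, 342 and 132 at 24 months, against 6281, 4296, 3404 and 5339 at 18 months. The groups were separate, with 19.1-fold less signal at 24 months (-4.25 on the log2 scale, SE 0.30, and an adjusted p of 1.83e-07). Obp3, a carrier protein of the lipocalin family, had signals of 277, 242, 231 and 92.8 at 24 months, against 5029, 2081, 2471 and 3928 at 18 months (16.3-fold lower, adjusted p = 4.27e-07). Mup5 of the same family fell 2.91-fold (SE 0.25 around a log2 change of -1.54, adjusted p = 0.00275). The probe sets of Obp3 and Mup5 can cross-react within the family, so the split between its members is uncertain. Car3, a carbonic anhydrase, was 4.38-fold lower, with 779 to 1758 at 24 months against 3566 to 6372 at 18 months (adjusted p = 6.86e-05). The 3 members that did not pass were Bcl6 (log2 fold change -1.19, 95% confidence interval -2.54 to 0.16), a repressor of female-pattern genes in mouse liver, Cyp2c22 (-0.07, -0.45 to 0.31) and Rup2 (-0.12, -0.30 to 0.07).

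Female-pattern genes made up 6 of the 12 largest rises without overlap. Of 14 measured members of the female-dominant list 6 rose and 1 fell, against 0.88% of all genes in each direction, and the median log2 fold change was 1.65. Cyp2c12, a P450 of female liver that acts on sulfated steroids, had signals of 5712, 6662, 5935 and 7441 at 24 months, against 262, 145, 1013 and 143 at 18 months. The old livers were within a narrow range, and the highest 18-month value was that of replicate 3. The rise was 23.5-fold (4.55 on the log2 scale, SE 0.56, and an adjusted p of 0.000212).

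The upstream sequences of this pair of P450 genes are shown because they moved in opposite directions by similar sizes. Each is a window of 300 bases that spans the start of the gene, mostly upstream of it, as annotated by RefSeq on build GRCr8, 5′ to 3′ on the gene's own strand. Capitals mark matches to 4 motifs searched on both strands: CACGTG (the E-box of clock factors), TTANGTAA (the D-box of DBP and TEF), TTCNNNGAA (the STAT5 motif) and ATTGAT (a core of Onecut factors such as HNF6, which activates Cyp2c12 in the rat). Cyp2c11 lies at chr1:246174966-246175265 on the plus strand and Cyp2c12 at chr1:248676985-248677284 on the minus strand.
Cyp2c11: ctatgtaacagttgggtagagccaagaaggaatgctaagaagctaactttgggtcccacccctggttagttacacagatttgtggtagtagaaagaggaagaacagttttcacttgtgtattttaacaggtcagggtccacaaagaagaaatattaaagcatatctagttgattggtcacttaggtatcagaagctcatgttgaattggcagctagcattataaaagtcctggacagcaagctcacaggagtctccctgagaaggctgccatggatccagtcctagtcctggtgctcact
Cyp2c12: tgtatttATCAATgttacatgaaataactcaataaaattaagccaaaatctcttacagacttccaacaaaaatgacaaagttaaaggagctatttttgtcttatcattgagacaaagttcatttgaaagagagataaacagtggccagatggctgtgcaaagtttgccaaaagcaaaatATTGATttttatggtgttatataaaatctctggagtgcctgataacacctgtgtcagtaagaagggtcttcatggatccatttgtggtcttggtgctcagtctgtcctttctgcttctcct
The Cyp2c12 sequence held ATTGAT at positions -243 and -71 from the start and no other motif, and none of the 4 was in the Cyp2c11 window. ATTGAT was present in 8.06% of 33469 rat promoters of the same length. Onecut1, the gene of HNF6, had signals of 1074, 1415, 612 and 2057 at 24 months, against 573, 504, 322 and 839 at 18 months. The groups overlapped and the difference did not pass (log2 fold change 1.15, SE 0.46, adjusted p = 0.288).

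Akr1b7, an aldo-keto reductase that detoxifies aldehydes, had signals of 1623, 2540, 1465 and 3104 at 24 months, against 44.1 and 113 and 2 values below the floor at 18 months. It rose at least 43.8-fold between the means on the log scale (log2 fold change 5.45, SE 0.36, adjusted p = 1.40e-07). A1bg, a plasma protein of the immunoglobulin superfamily made mainly by female rat liver, had signals of 737, 2341, 333 and 3370 at 24 months, against 37.3 on replicate 3 and 3 values below the floor at 18 months. The old livers differed among themselves by about 10-fold, yet each was far above the 18-month arrays (at least 35.5-fold, adjusted p = 1.31e-05). Sult2a2, a hydroxysteroid sulfotransferase, had 48.1, 235, 103 and 282 at 24 months and no 18-month array above the floor (at least 4.21-fold, adjusted p = 0.00604). That call was lost when the fit held only the 8 arrays, and without the arrays of high GAPDH ratio (adjusted p up to 0.105).

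The list also holds regulators. Trim24, a cofactor of nuclear receptors, had signals of 737, 627, 546 and 785 at 24 months, against 75.0, 63.6, 141 and 46.7 at 18 months, an 8.91-fold rise (adjusted p = 1.70e-06). Cux2, a female-specific transcription factor that represses male-pattern genes in mouse liver, had 146, 136, 115 and 160 at 24 months, against 35.3 on replicate 3 and values below the floor on the other arrays of 18 months. It rose at least 4.22-fold (adjusted p = 1.83e-07), and a second probe set passed as well (log2 fold change 1.47). The member that fell was Hsd17b2, which oxidises estradiol and testosterone, with 509, 472, 763 and 739 at 24 months against 3453, 1833, 3834 and 2618 at 18 months (4.65-fold, adjusted p = 0.00655). Its mean was 834 ± 370 at 11 months (SD, n = 4), near that of 24 months, and 18 months had the highest mean of the 4 ages.

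The prolactin receptor gene Prlr, another female-dominant member, had signals of 806, 817, 761 and 1210 at 24 months, against 203, 309, 470 and 290 at 18 months. The groups were separate, but this probe set did not pass (log2 fold change 1.54, SE 0.44, adjusted p = 0.0984). A probe set for alternative transcripts of Prlr did (log2 fold change 2.20, SE 0.45, adjusted p = 0.0227), and the other did not (adjusted p = 0.0769). The remaining members without a call were Sult2a6 (log2 fold change 1.76, adjusted p = 0.0998), Onecut1, Cyp2a1 (0.50), Cyp3a9 (0.37), Cyp2c7 (0.21) and Fmo1 (-0.84).

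**Figure D2:**
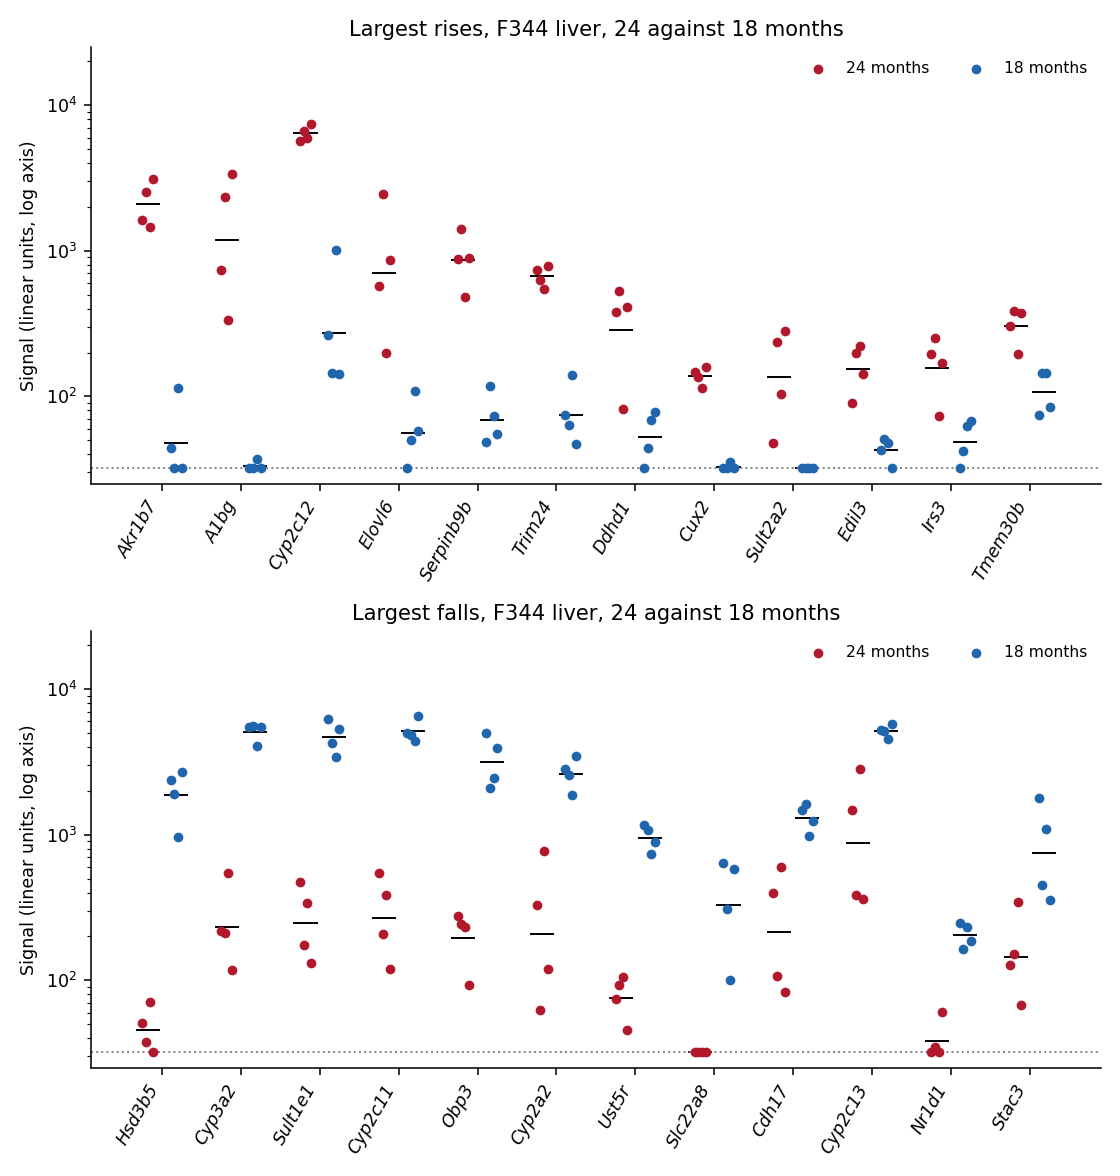
Signals (log axis) of the 12 largest rises and the 12 largest falls on each array, with 24 months in red to the left of 18 months in blue; short bars are means on the log scale and the dotted line is the floor of 32, at which lower signals are drawn. In each of these genes the 4 arrays of 24 months do not overlap the 4 of 18 months, and Cyp2c12 has the tightest 24-month values among the large rises.

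The largest changes outside both lists had a variety of functions. Serpinb9b, of the family of serine protease inhibitors, had signals of 880, 1418, 483 and 898 at 24 months, against 48.2, 117, 73.3 and 55.0 at 18 months (12.4-fold higher, adjusted p = 3.37e-05). Edil3, a secreted integrin-binding protein, had 89.8, 198, 221 and 141 at 24 months, against 43.1, 51.1, 47.7 and a value below the floor at 18 months (at least 3.59-fold, adjusted p = 0.000103). Both rose on all 4 arrays of 24 months. The phospholipase gene Ddhd1 (at least 5.46-fold), the insulin receptor substrate Irs3 (at least 3.21-fold) and the flippase subunit Tmem30b (2.82-fold) were also higher. However, each lost its call without replicate 1, 2 or 4 of 24 months or replicate 1 of 18 months. Tmem30b also lost it without replicate 3 or 4 of 18 months. Ddhd1 and Irs3 had their lowest means of all ages at 18 months (52.9 and 50.6). They averaged 104 and 107 at 6 months and 80.2 and 105 at 11 months.

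Among the falls, Ust5r, a transporter of the organic ion family, had signals of 74.8, 92.9, 105 and 45.7 at 24 months, against 1163, 1086, 735 and 887 at 18 months (12.5-fold, adjusted p = 9.72e-08). Cdh17, a cadherin of liver and intestine, had 397, 106, 604 and 83.7 at 24 months, against 1473, 1615, 984 and 1249 at 18 months (6.09-fold, adjusted p = 0.00517). Both genes were lower on all 4 arrays of 24 months, but Cdh17 lost its call with only the 8 arrays in the fit and without the arrays of high GAPDH ratio (adjusted p up to 0.101). Stac3, known for its role in muscle contraction, was 5.17-fold lower with a wide spread at 18 months (358 to 1798), and it lost its call without replicate 1, 2 or 4 of 24 months or replicate 1 or 3 of 18 months.

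The genes of hormone signalling did not pass by their chosen probe sets. Of 18 tested genes of growth hormone, prolactin and IGF signalling 0 passed in limma (2 higher and 2 lower at an unadjusted p under 0.05), and their median log2 fold change was 0.02. Prlr belongs to this list, and its chosen probe set passed under 4 of 20 alternatives. The growth hormone receptor Ghr had signals of 2152 to 2573 at 24 months and 2012 to 2510 at 18 months (log2 fold change 0.03, 95% confidence interval -0.22 to 0.27). Igf1, the growth factor that growth hormone induces in liver, had 4192 to 5268 at 24 months and 4188 to 5191 at 18 months (0.04, -0.19 to 0.27). Both intervals, of the chosen probe sets, are far narrower than a 2-fold change. A second Ghr probe set was less precise (0.33, SE 0.60) and does not limit the change as closely. Other Igf1 probe sets had 0.23 (SE 0.15) and 0.02 (SE 0.10). Stat5b (-0.26, -0.66 to 0.13) and the liver regulator Hnf4a (0.00, -0.31 to 0.30) had intervals that span 0. Other Hnf4a probe sets had -0.42 (SE 0.22) and -0.21 (SE 0.47). None of these other probe sets passed in limma. Of 21 liver transcription factors 2 rose, Cux2 and Trim24, and 1 fell, Klf9, with a median of -0.04.

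The extent of the switch differed between the 4 old rats. The mean log2 signal of the male-dominant list, relative to its 18-month mean, was -2.31, -3.10, -2.03 and -3.39 on replicates 1 to 4 of 24 months, against -0.21 to 0.31 at 18 months. That of the female-dominant list was 1.51, 1.89, 1.52 and 2.21 on the same arrays of 24 months, against -0.27 to 0.42 at 18 months. Replicates 4 and 2 thus had the lowest male-pattern and the highest female-pattern levels, and replicates 3 and 1 the smaller shifts. Replicate 3 of 24 months held the highest Cyp3a2 (542), Cyp2a2 (776) and Cyp2c13 (2842) of its age and the lowest A1bg (333) and Elovl6 (198). At 18 months replicate 3 had the highest female-pattern level, with the highest Cyp2c12 (1013), Akr1b7 (113), Trim24 (141), A1bg (37.3) and Cux2 (35.3) and the lowest Cyp3a2 (4062) and Hsd3b5 (966) of its age. Its GAPDH ratio was 1.65, inside the range of the 24-month arrays. With 4 rats a group these orders are descriptions.

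**Figure D3:**
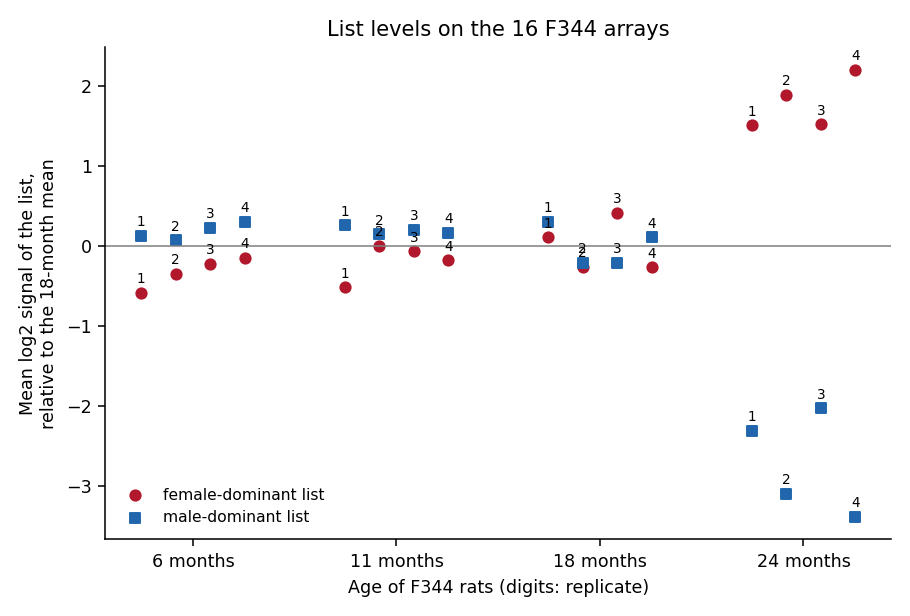
Mean log2 signal of the male-dominant (blue squares) and female-dominant (red circles) lists on each of the 16 F344 arrays, relative to the 18-month mean, by age with replicate digits. The male-dominant level is 2.03 to 3.39 below the 18-month mean on the 4 arrays of 24 months and near it at the other ages.

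Most of the called sex-pattern genes stood apart at the last of the 4 ages. Of the 162 genes, 91 had all 4 arrays of 24 months outside the range of the 12 younger F344 arrays, 41 higher and 50 lower, against 2.69% of all genes tested. All 10 male-dominant genes that fell and all 6 female-dominant genes that rose were among them, but Hsd17b2 was not. Prlr, which was not called, averaged 61.0 ± 29.0 at 6 months, 131 ± 103 at 11, 318 ± 111 at 18 and 899 ± 209 at 24 months (SD, n = 4 each), so its mean was higher at each later age. Another 14 of the 162 had the 4 arrays of 18 months outside the range of the other 12, against 0.348% of all genes, and 57 had neither. The 14 included Mt2A, Hal, the lysosomal lipase Lipa, the apoptosis factor Bcl2l11 and the transcription factor Klf13. These splits by age were chosen after the data had been seen and are descriptions, since the 24- and 18-month arrays also gave the calls.

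Clock genes were among the 162 and followed another course over age. Of 15 measured genes of the clock and its outputs 4 fell and 2 rose (0.88% of all genes in each direction), with a median log2 fold change of -0.03. Nr1d1, a repressor of the clock's activating limb, had signals of 34.8 and 60.2 and 2 values below the floor at 24 months, against 246, 163, 231 and 186 at 18 months. It was at least 5.33-fold lower (adjusted p = 7.82e-05), with no overlap. Its partner Nr1d2 had 101, 111, 110 and 248 at 24 months, against 374, 442, 467 and 526 at 18 months (3.40-fold lower, adjusted p = 0.000561).

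The output factors moved the same way. Tef had signals of 66.8, 67.8, 63.7 and 46.6 at 24 months, against 101, 122, 151 and 155 at 18 months (2.15-fold lower, adjusted p = 0.00208). Dbp had no 24-month array above the floor, against 88.3, 66.9, 151 and 117 at 18 months (at least 3.16-fold, adjusted p = 0.00255). Second probe sets of Nr1d2 and Tef also passed and had the same sign. Of the activating side, Npas2 had 158, 127, 155 and 179 at 24 months, against 74.6, 104, 67.5 and 63.5 at 18 months (2.02-fold higher, adjusted p = 0.0244). The repressor Cry1 was at least 2.55-fold higher (160, 138, 127 and 49.0 at 24 months, against 36.6, 41.9, 65.4 and a value below the floor at 18 months, adjusted p = 0.038), with overlap from replicate 4 of both ages. Bmal1 (1.02, adjusted p = 0.0662) and Nfil3 (0.92, adjusted p = 0.0662) had separate groups without a call. The 2 rises gave 0 calls without replicate 1 of 24 months, without replicate 1 or 3 of 18 months, or without the arrays of high GAPDH ratio, while the 4 falls were called in each of these.

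The upstream sequences of Nr1d1 and Tef are shown because these clock genes both fell, and the windows shown hold the E-box. That of Nr1d1 is for the downstream of its 2 annotated starts, at chr10:84229405-84229704 on the minus strand, and that of Tef lies at chr7:115206577-115206876 on the plus strand, with windows, build and capitals as above.
Nr1d1: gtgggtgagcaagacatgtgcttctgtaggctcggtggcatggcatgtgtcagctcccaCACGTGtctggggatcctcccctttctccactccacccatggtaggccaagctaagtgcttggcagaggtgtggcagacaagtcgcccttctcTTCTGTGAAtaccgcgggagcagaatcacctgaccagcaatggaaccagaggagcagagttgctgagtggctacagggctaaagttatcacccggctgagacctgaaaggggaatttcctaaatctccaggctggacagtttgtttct
Tef: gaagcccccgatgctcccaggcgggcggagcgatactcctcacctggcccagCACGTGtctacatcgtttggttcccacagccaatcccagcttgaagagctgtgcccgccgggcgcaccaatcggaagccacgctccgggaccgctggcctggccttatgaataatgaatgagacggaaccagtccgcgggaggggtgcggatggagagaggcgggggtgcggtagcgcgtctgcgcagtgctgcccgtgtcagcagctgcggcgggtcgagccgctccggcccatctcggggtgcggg
The E-box stood at -191 in Nr1d1 and at -198 in Tef, and the Nr1d1 window also held the STAT5 motif at -98. The window at the other Nr1d1 start, chr10:84231763-84232062, held none of the 4 motifs. CACGTG was present in 6.42%, TTCNNNGAA in 8.87% and TTANGTAA in 2.24% of the 33469 promoters. Of 43 named passing genes that matched the promoter table, CACGTG was found for 3 (Nr1d1, Tef and Mt2A) and TTANGTAA for 1 (Sult1e1). TTCNNNGAA was found for 6 (A1bg, Serpinb9b, Nr1d1, Klf9, Dbp and Slco1b2). ATTGAT was found for 9, of which A1bg, Cyp2c12, Trim24 and Slc39a10 rose and Obp3, Ust5r, Cyp2c13, Rgn and Spink1 fell. A match is a string of letters and no proof of binding.

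Over the ages the clock repressors did not move one way. Nr1d1 averaged 145 ± 40.1 at 6 months, 70.4 ± 25.8 at 11, 207 ± 38.6 at 18 and 35.6 ± 17.2 at 24 months (SD, n = 4 each). Nr1d2 averaged 321 ± 69.4, 189 ± 26.4, 452 ± 63.0 and 142 ± 70.5 at the same ages. The mean log2 level of Nr1d1, Nr1d2, Tef and Dbp relative to 18 months was -0.28 to -1.08 at 6 months, -1.05 to -1.47 at 11 months and -1.44 to -1.86 at 24 months. The 18-month livers were thus the highest of the 4 ages in these genes. No source used here gives the time of day of necropsy. At 11 months the male-dominant list stood 0.15 to 0.26 above its 18-month mean. The clock genes that fell differ between the same 8 arrays as the other called genes, and their part in those results was not tested.

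**Figure D4:**
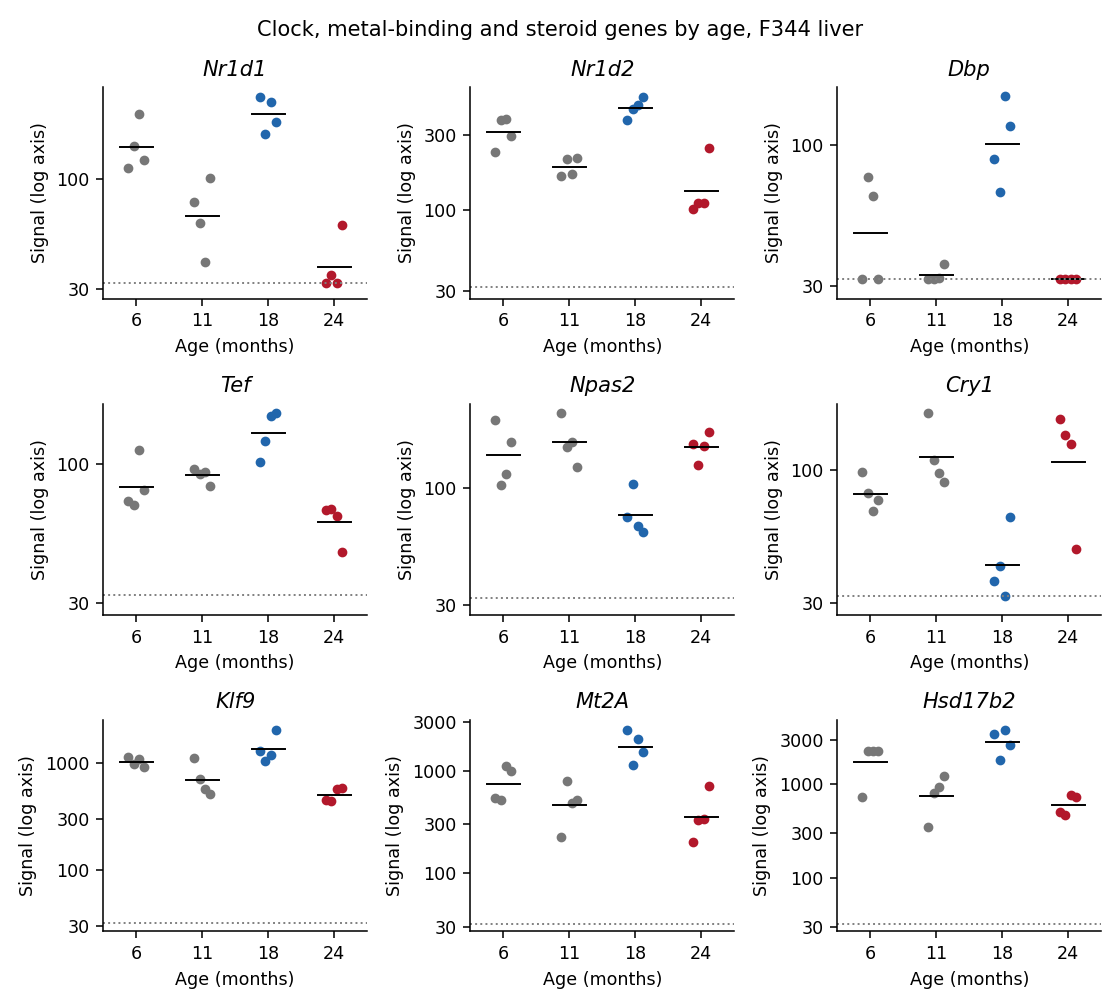
Signals (log axes) of 6 clock genes and of Klf9, Mt2A and Hsd17b2 on the 4 F344 arrays of each age, with 18 months in blue and 24 months in red; bars are means on the log scale and the dotted line is the floor of 32. Nr1d1, Nr1d2, Dbp, Tef, Mt2A and Hsd17b2 have their highest mean at 18 months, and Npas2 and Cry1 their lowest.

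Of the metal-binding and glucocorticoid-responsive genes that fell, Mt2A, Mt1, Klf9, Pck1 and Errfi1 also had their highest mean of the 4 ages at 18 months. The metallothionein Mt2A, which buffers zinc and copper, had signals of 200, 328, 340 and 709 at 24 months, against 2525, 1139, 2036 and 1528 at 18 months (4.88-fold lower, adjusted p = 0.00655). Mt1 was at least 3.73-fold lower (32.8 and 67.9 and 2 values below the floor at 24 months, against 111, 94.6, 129 and 326 at 18 months), a call lost under 13 of 20 alternatives. Of 11 genes of metallothionein and zinc handling 2 fell and 1, the zinc importer Slc39a10, rose, with a median of 0.08. Slc39a10 (at least 1.26-fold) lost its call under 12 of 18 alternatives, among them leaving out any 18-month array.

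Of 18 genes of the glucocorticoid and fasting response 3 fell and 0 rose, with a median of -0.16. Klf9, a transcription factor that glucocorticoid and thyroid hormone induce, had signals of 446, 440, 571 and 581 at 24 months, against 1286, 1043, 1168 and 2020 at 18 months (2.64-fold lower, adjusted p = 0.00255). Pck1, which commits carbon to glucose synthesis, was 1.71-fold lower and Errfi1, an inhibitor of the EGF receptor, 1.41-fold lower, and these lost their calls without, among others, replicate 1 or 4 of 24 months or replicate 4 of 18 months. Canonical targets such as Fkbp5 (-0.23, -0.53 to 0.07) and Tat (0.27, -0.25 to 0.79) did not pass. Hsd11b1, which regenerates active glucocorticoid in the liver, had 1744, 1598, 2540 and 1203 at 24 months, against 3489, 3654, 3408 and 3375 at 18 months (2.04-fold lower, adjusted p = 0.00255). With Hsd3b5, Sult1e1 and Hsd17b2 it made 4 falls and 0 rises among 17 genes of steroid receptors and steroid enzymes, with a median of -0.16.

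Lipid synthesis genes were higher in some of the old livers. Of 26 genes of fatty acid and triglyceride synthesis 3 rose and 0 fell, against 0.88% of all genes in each direction, 20 had a positive log2 fold change and the median was 0.43. Elovl6, which elongates saturated fatty acids, had signals of 576, 2469, 198 and 866 at 24 months, against 50.4, 108, 57.7 and a value below the floor at 18 months (at least 12.5-fold, adjusted p = 0.00641). Pnpla3, an acyl hydrolase of lipid droplets induced by feeding, had 400, 2258, 97.4 and 968 at 24 months, against 99.2, 76.2, 32.6 and a value below the floor at 18 months (at least 10.2-fold, adjusted p = 0.0346). The groups overlapped for Pnpla3 at replicate 3 of 24 months. Replicate 2 held the highest and replicate 3 the lowest signal of both genes at 24 months. Elovl6 averaged 72.0 at 6, 189 at 11, 60.4 at 18 and 1028 at 24 months. Pnpla3 averaged 93.3, 122, 53.2 and 931 at the same ages. Both thus had their lowest mean at 18 months. On replicate 3 of 24 months both signals were below those of replicate 1 of 11 months (281 and 271).

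Other enzymes of this pathway also had their highest 24-month signal on replicate 2, without a call. Fasn, the fatty acid synthase, had 2595, 4251, 1516 and 2752 at 24 months, against 559, 1656, 1656 and 1410 at 18 months (log2 fold change 1.1, adjusted p = 0.378). Scd2, a desaturase, had 107, 1429, 121 and 896 at 24 months, against 88.8, 51.4, 74.0 and 38.3 at 18 months (2.58, adjusted p = 0.0512). Acss2, which makes acetyl-CoA from acetate, was 1.83-fold higher (adjusted p = 0.0493), with overlap. Its mean too was lowest at 18 months (533, against 671 at 6 and 715 at 11 months). The 3 calls of the list became 0 with only the 8 arrays in the fit and 1 without replicate 2 or 4 of 24 months, replicate 1, 3 or 4 of 18 months, or the arrays of high GAPDH ratio, and 6 without replicate 3 of 24 months.

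Of 21 genes of cholesterol synthesis and uptake 1 rose, Pmvk of the mevalonate pathway (1.57-fold, adjusted p = 0.0223), with 17 positive changes and a median of 0.33. Its call was lost without replicate 1 or 2 of 24 months or replicate 1 or 3 of 18 months. Of 17 genes of bile acid synthesis and transport 1 fell, the peroxisomal racemase Amacr (1.60-fold, adjusted p = 0.0384), with 14 negative changes and a median of -0.29. Amacr lost its call under 10 of 20 alternatives, without replicate 1, 2 or 3 of either age among them. Cyp7a1, the rate-limiting enzyme of bile acid synthesis, had 665, 460, 1279 and 565 at 24 months, against 1676, 1229, 1191 and 1107 at 18 months (log2 fold change -0.90, adjusted p = 0.188). Of 28 genes of fatty acid oxidation 1 fell, the ketone body enzyme Bdh1 (1.66-fold), which lost its call without replicate 2 of 24 months, and the median was -0.10.

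Among the enzymes of foreign compound metabolism, the calls of the cytochromes P450 were concentrated in members of the sex-pattern lists. Of 33 cytochromes P450 of families 1 to 4, 6 fell and 1 rose (0.88% of all genes in each direction), with a median of -0.20. Of these 7, only Cyp2b3 (2392, 1731, 4079 and 1927 at 24 months, against 4810, 3895, 4304 and 4480 at 18 months, 1.83-fold lower, adjusted p = 0.0279) is outside the male- and female-dominant lists. Cyp2e1 (0.00, 95% confidence interval -0.21 to 0.22), Cyp3a23-3a1 (-0.15, -0.36 to 0.06) and Cyp4a1 (0.09, -0.33 to 0.52) had intervals that span 0. Cyp1a2 had a negative change without a call (-0.35, -0.71 to 0.01).

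Of 10 cytosolic sulfotransferases 2 fell, Sult1e1 and Sult1c3 (1.64-fold, adjusted p = 0.012), and 1 rose, Sult2a2, with a median of 0.00. Of 43 aldehyde, alcohol and aldo-keto dehydrogenases 3 fell and 2 rose, with a median of -0.05. Akr1c3, of a family that reduces steroids and prostaglandins, had 4 values below the floor at 24 months, against 165, 124, 76.6 and 179 at 18 months (at least 4.04-fold lower, adjusted p = 0.000101). Dhrs7l1, a short-chain dehydrogenase, had 148, 196, 190 and 158 at 24 months, against 1481, 453, 484 and 1560 at 18 months (4.91-fold lower, adjusted p = 0.00131). Dhrs3, which reduces retinal, was 1.55-fold lower and lost its call without replicate 1 or 4 of either age. The rises were Akr1b7 and the mitochondrial Aldh1b1 (at least 4.02-fold, adjusted p = 0.0252). For Aldh1b1 the 24- and 18-month groups were not fully separate.

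Transporters fell where they passed. Of 32 drug and organic ion transporters 3 fell and 0 rose, with a median of -0.06. Slc22a8, which takes up organic anions, had no 24-month array above the floor, against 635, 309, 101 and 579 at 18 months (at least 10.2-fold, adjusted p = 0.00255). A second Slc22a8 probe set had the same sign but did not pass in limma (log2 fold change -1.28, SE 0.55, adjusted p = 0.391). Slc10a2, a bile acid importer, was at least 2.09-fold lower and lost its call without replicate 2 or 4 of 24 months or replicate 1 of 18 months. Slco1b2, the main hepatic importer of organic anions, was 1.47-fold lower and lost its call under 13 of 20 alternatives, leaving out 7 of the 8 arrays among them. Of 14 xenobiotic receptors and partners only Rxrg passed (1.35-fold higher, adjusted p = 0.032), a call lost without replicate 1, 2 or 4 of 24 months or replicate 3 or 4 of 18 months. The receptors Nr1i2 (-0.11, -0.56 to 0.33) and Nr1i3 (-1.06, adjusted p = 0.41) and the reductase Por (-0.12, -0.60 to 0.36) did not. None of 20 glutathione S-transferases, 5 UDP-glucuronosyltransferases or 9 carboxylesterases, FMO and epoxide hydrolases passed in limma (7, 2 and 3 at an unadjusted p under 0.05).

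Few genes of the lists linked to ageing and stress passed. Rgn, also called senescence marker protein, had signals of 3516, 2960, 3114 and 3106 at 24 months, against 4512, 4043, 4051 and 4418 at 18 months (1.34-fold lower, adjusted p = 0.0354), the only call among 16 genes of p53, growth arrest and senescence (median 0.00). Rgn lost this call under 10 of 20 alternatives, leaving out any of 6 arrays among them. Spink1, a trypsin inhibitor seen in preneoplastic foci, had 52.3, 60.3, 59.6 and 35.6 at 24 months, against 226, 203, 182 and 247 at 18 months (4.18-fold lower, adjusted p = 0.000293). It was the only call among 9 genes of that list, in which Gstp1, the classical marker of such foci, had a log2 fold change of 0.74 (adjusted p = 0.278). Herpud1 of the endoplasmic reticulum was 1.85-fold lower, 1 call among 26 genes of the unfolded protein response, lost without replicate 1, 2 or 4 of 24 months or replicate 1 or 3 of 18 months. Of 44 genes of amino acid breakdown and the urea cycle 1 rose, Hal, which degrades histidine, with 824, 843, 687 and 1012 at 24 months against 471, 253, 484 and 516 at 18 months (2.01-fold, adjusted p = 0.023), a call lost without replicate 1, 2 or 4 of 24 months.

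In several further lists 0 genes passed in limma. They held 30 acute-phase and plasma proteins (1 at an unadjusted p under 0.05), 31 interferon-responsive genes (5), 9 genes of MHC class II presentation (0), 15 of the cell cycle (1), 16 of heat shock (4), 22 of NRF2 and glutathione (5), 80 of oxidative phosphorylation (2), 42 ribosomal proteins (3) and 41 of the proteasome (1). Their medians lay between -0.12 and 0.21.

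A few markers of cytotoxic lymphocytes rose. Of 16 tested genes of T, NK and cytotoxic lymphocytes 2 rose and 0 fell (0.88% of all genes in each direction), 14 had a positive change and the median was 0.43. Gzmk, a granule protease, had 94.3, 81.1, 47.6 and 50.3 at 24 months, against 37.5, 35, 46.5 and a value below the floor at 18 months (at least 1.75-fold, adjusted p = 0.0481). Klrd1, a chain of NK cell receptors, had 52.4, 52.4, 42.5 and 54.2 at 24 months, against 37.5, 35.2 and 2 values below the floor at 18 months (at least 1.47-fold, adjusted p = 0.0354). The groups were separate, but both calls are close to the floor and were lost without replicate 1 or 2 of 24 months or replicate 1, 2 or 3 of 18 months, and Klrd1 also without replicate 4 of either age. In whole liver more cells of a type and more RNA per cell cannot be told apart.

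The summed signal of the 16 markers was 1369 to 2799 at 24 months and 993 to 1385 at 18 months. Replicate 1 of 24 months held the highest Prf1 (351), Ccl5 (909), Cd8a (108) and Coro1a (235) of the 8 arrays, against 35.2 to 94.8, 176 to 367, 38.7 to 50.5 and 113 to 120 on the other 3 of that age. None of these 4 genes passed. The summed signals of the other cell types overlapped between the ages except for B and plasma cells, with 1266 to 1421 at 24 months and 1698 to 1851 at 18 months. A sum follows mostly its brightest members. The 5 B and plasma cell markers had a median log2 fold change of only -0.09, with 2 positive and 3 negative changes. Xbp1, a member, is also in the list of the unfolded protein response. Of those 5 markers 0 passed in limma (1 at an unadjusted p under 0.05), as did 0 of 22 macrophage (0), 2 neutrophil (0), 25 stellate and matrix (3), 15 endothelial (1), 8 cholangiocyte (0), 5 erythroid and platelet (1) and 17 hepatocyte (2) markers. The part of these cell types in the other results was not tested.

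The change in F344 rats was set against that between untreated Brown Norway rats of 24 and 12 months (3 each), the last step in age of that strain, which covers a wider span of age than the F344 step. The difference of the changes passed for 43 of 7956 genes (0.54%), 23 with the higher and 20 with the lower change in F344, and 972 had an unadjusted p under 0.05. Of the 162 genes 134 could be tested and 26 differed, a share that is not independent of the F344 calls. In Brown Norway rats alone 2 of 8584 genes passed in limma (0.0233%), Lgals3bp and N4bp2l1, both higher at 24 months and neither called in F344 rats, with 1249 at an unadjusted p under 0.05.

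Several male-pattern genes fell further in F344 rats. Of 12 male-dominant genes tested in both strains 7 had a lower change in F344, and the median change in Brown Norway rats was -0.38. Hsd3b5 averaged 43.3 ± 24.1 at 24 and 1998 ± 763 at 18 months in F344 rats (SD, n = 4 each), and 2614 ± 980 at 24 and 3189 ± 380 at 12 months in Brown Norway rats (SD, n = 3 each). The difference of the log2 changes was -4.98 (SE 0.38, adjusted p = 2.44e-10). For Cyp2c11 the change was -4.25 in F344 and -0.78 (SE 0.24) in Brown Norway rats, with means of 2983 ± 1154 at 24 and 4906 ± 537 at 12 months in Brown Norway rats (difference -3.47, SE 0.40, adjusted p = 1.76e-06). Cyp2c12 averaged 6437 ± 783 in F344 rats of 24 months, and 58.6 ± 45.6 at 24 and 35.3 ± 0.24 at 12 months in Brown Norway rats, and the difference of its changes was 4.01 (SE 0.65, adjusted p = 0.00142). Of 9 female-dominant genes tested in both strains 2 differed, Cyp2c12 and Cyp3a9, and the median change in Brown Norway rats was -0.03. Akr1b7, A1bg, Cux2 and Sult2a2, which rose in F344 rats, could not be tested for the difference, nor could Prlr. The count and the median thus rest mostly on members without a called rise in F344 rats. Trim24 had a log2 change of 3.15 in F344 and 1.16 in Brown Norway rats (difference adjusted p = 0.0959). The strains' signals may have been scaled apart, so levels across strains are given side by side only.

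Some falls were present in both strains by value. Akr1c3 had a log2 change of -2.01 (SE 0.23) in F344 rats and of -1.97 (SE 0.51) in Brown Norway rats, where it averaged 50.4 ± 27.8 at 24 and 183 ± 36.2 at 12 months (SD, n = 3 each). That of Dhrs7l1 was -2.30 (SE 0.34) in F344 and -2.44 (SE 0.84) in Brown Norway rats. That of Stac3 was -2.37 (SE 0.56) in F344 and -3.90 (SE 1.01) in Brown Norway rats. None of the Brown Norway changes passed (adjusted p = 0.133, 0.227 and 0.137), and the differences between strains did not pass (adjusted p = 0.985, 0.975 and 0.653), which does not show that the strains act alike.

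Hal, Klf9 and a few clock genes differed between the strains. Hal had a log2 change of 1.00 in F344 rats, against -1.67 (SE 0.35, adjusted p = 0.085) in Brown Norway rats, where it averaged 288 ± 144 at 24 and 818 ± 30.5 at 12 months (difference 2.68, SE 0.41, adjusted p = 0.000662). That of Klf9 was -1.40 in F344 and 0.65 (SE 0.39) in Brown Norway rats (difference -2.06, SE 0.45, adjusted p = 0.0293). That of Tef was -1.11 in F344 and 0.11 (SE 0.22) in Brown Norway rats (difference -1.21, SE 0.28, adjusted p = 0.0327). Of 12 clock genes tested in both strains, Npas2 also differed (1.01 in F344 and -0.94 in Brown Norway rats, adjusted p = 0.0207), and Tef and Npas2 were the only ones. Nr1d1 had a log2 change of -2.42 in F344 and -1.04 in Brown Norway rats (difference adjusted p = 0.283), and Nr1d2 one of -1.77 in F344 and -0.08 in Brown Norway rats (difference adjusted p = 0.0935). The difference of Hal and of Klf9 did not pass with the toluene-dosed Brown Norway rats of the same ages in place of the controls (adjusted p = 0.722 and 0.532). Without single F344 arrays those of Klf9, Tef, Elovl6, Ddhd1, Irs3 and Cyp2c13 also lost their calls.

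**Figure D5:**
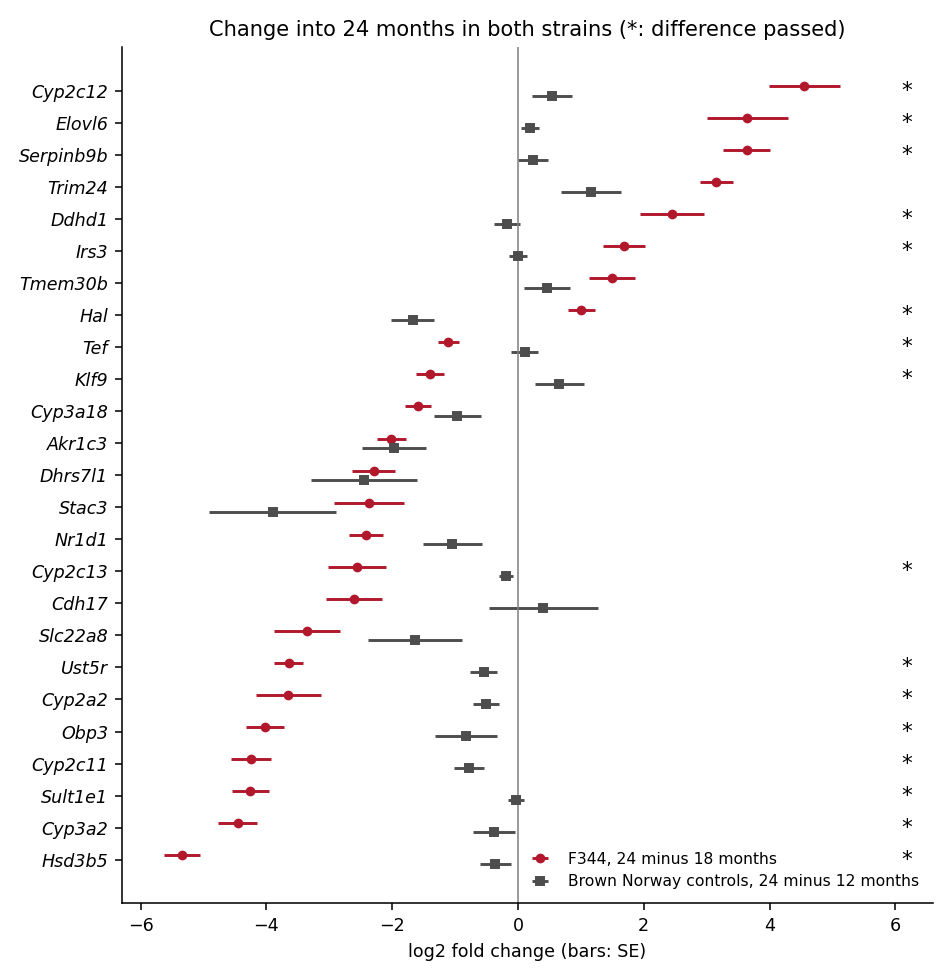
Log2 fold change with its standard error in F344 rats of 24 against 18 months (red circles) and in Brown Norway controls of 24 against 12 months (grey squares). Shown are the largest rises and falls that were tested in both strains, with Tef, Klf9, Hal, Cyp3a18, Dhrs7l1 and Akr1c3 added. Other named genes tested in both strains are left out, most of them without a difference that passed. An asterisk marks a difference that passed. The 7 male-pattern genes with an asterisk lie between -5.35 and -2.56 in F344 rats and nearer 0 in Brown Norway rats, while Akr1c3 and Dhrs7l1 nearly coincide.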

How the data were processed

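Total RNA of each liver was hybridised to its own Affymetrix rat array, per the labels. The authors deposited linear intensity values per probe set, and the submitters' processing notes name MAS5 and RMA without version, role or order; the scaling is otherwise not given in the sources used here. Signals were floored at 32 and log2 transformed. A gene was its probe set of highest mean log2 signal, with symbols updated through Entrez identifiers, and was tested if above the floor on at least 4 of 16 F344 arrays, which left 9206 of 11943 genes. Group means of the 4 F344 ages were fitted with limma 3.58.1 in R 4.3.3, with Benjamini-Hochberg adjustment over all tested genes. Folds are ratios of means on the log scale of floored values and are lower bounds ("at least") where an array of the dimmer group was at the floor. Signals are means ± SD over rats. For the strain difference the estimates of separate fits were compared with Satterthwaite degrees of freedom.

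The lists, 42 in all, came from general knowledge of rat liver. The members and lists were chosen with earlier results of these data known. Named genes were up to 12 of the largest non-overlapping changes in each direction, up to 4 passing genes of smallest p per list, and a set of sex-pattern and hormone genes; Esr1 of that set was not tested, being too dim. Other genes named, such as Onecut1, Scd2, Prf1 and Fasn, were chosen after their values were seen. The fit was tested on simulated data. Replicate numbers only name arrays. The alternatives changed the arrays in the fit, the probe set rule, the floor, the filter, the scaling, the variance model, array weights and the GAPDH ratio. Per-sample columns not used numbered 0. The number of arrays limits the precision. Promoters are from RefSeq, build GRCr8.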

Additional observations from a re-analysis of the deposited data

Results flagged for a closer look

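Among 120 sets of 4 arrays (the named genes at 24 and at 18 months) 15 held an array far from the other 3 by Dixon's criterion. It was applied to signals raised to the floor, so a set with 3 arrays at the floor and 1 above is always flagged. A1bg and Cux2 at 18 months and Slc10a2 at 24 months were such sets. The criterion's nominal rate of 1 in 20 does not apply to them, and the sets share the same arrays. The count is thus a description. At 24 months replicate 4 stood apart in 6 genes: Obp3 (92.8, against 231 to 277 on the other arrays), Tef (46.6, against 63.7 to 67.8), Nr1d1 (60.2, against values of at most 34.8), Nr1d2 (248, against 101 to 111), Mt1 (67.9, against at most 32.8) and Prlr (1210, against 761 to 817). Replicate 3 of 24 months was low in Klrd1 (42.5, against 52.4 to 54.2) and Igf1 (4192, against 5219 to 5268), and replicate 1 was high in Slc10a2 (37.3, against values below the floor) and Bcl6 (153, against 49.0 to 57.2). At 18 months replicate 3 was high in A1bg (37.3) and Cux2 (35.3), where the other 3 were below the floor, and low in Cyp3a2 (4062, against 5476 to 5583). Replicate 2 of 18 months was low in Hal (253, against 471 to 516) and replicate 1 high in Cyp3a18 (4071, against 3186 to 3245). The part of single animals in these values was not tested.

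The change in F344 rats (24 minus 18 months) differed from that in Brown Norway controls (24 minus 12 months) for 16 named genes. The difference on the log2 scale was 4.01 for Cyp2c12, 3.45 for Elovl6, 3.39 for Serpinb9b, 2.63 for Ddhd1, 1.68 for Irs3 and 2.68 for Hal. It was -4.98 for Hsd3b5, -4.07 for Cyp3a2, -4.23 for Sult1e1, -3.47 for Cyp2c11, -3.20 for Obp3, -3.14 for Cyp2a2, -3.10 for Ust5r, -2.37 for Cyp2c13, -2.06 for Klf9 and -1.21 for Tef. The adjusted p ran from 2.44e-10 for Hsd3b5 to 0.0345 for Irs3. In Brown Norway controls of 24 and 12 months Elovl6 averaged 30.5 and 19.7 and Serpinb9b 31.2 and 26.0. Ddhd1 averaged 29.5 and 34.6 there and Irs3 14.9 and 23.6, all near or below the floor. For Irs3 the Brown Norway change was 0 after flooring. A fall of these dim genes in that strain could not be measured, so their differences largely restate the F344 rise. They show only that no Brown Norway rise of similar size was seen.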

How the results depend on the processing

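Under 21 alternatives the count of 162 passing genes (81 higher, 81 lower) became 65 (30 higher, 35 lower) with only the 8 arrays in the fit, 629 (317 and 312) with array quality weights, 252 (129 and 123) with the GAPDH ratio as a covariate and 93 (42 and 51) without the 5 arrays of high GAPDH ratio. Leaving out single arrays gave 69 to 249 (29 to 123 higher and 40 to 126 lower). With a floor of 8 the higher genes numbered 50, and with a floor 4 times higher the lower numbered 53. Of the 65 genes 60 were among the 162, and of the 629 genes 161. The 43 genes whose change differed from Brown Norway controls became 17 to 126 with single F344 arrays left out and 47 with dosed Brown Norway rats, of which 17 were shared. No sign of a named call was reversed. Of 54 named genes that passed, 22 kept the call under every alternative that tested them, 32 lost it under at least 1 and 19 under at least 6. Another tested probe set existed for 10 of the 54, giving 11 probe sets. All 11 had the same sign and 6 passed themselves. Those of Slc22a8, Spink1, Bdh1 and Slco1b2 did not pass. The male-dominant falls numbered 7 to 10 and the female-dominant rises 4 to 9. No paired analysis was possible because the replicate numbers were given in accession order and pair no rats. The cause of these shifts was not tested. Near the floor, folds are bounds and small changes cannot be measured.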

Other observations

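Genes outside the lists also changed between 24 and 18 months, and those given here were chosen after their values were seen. Some act on vitamin A and thyroid hormone. Cyp26a1, which degrades retinoic acid, had signals of 136, 200, 137 and 125 at 24 months, against 76.7, 61.5, 63.9 and 55.8 at 18 months (2.29-fold higher, adjusted p = 0.00568 in limma). Rdh16, a retinol dehydrogenase, had 60.3, 60.0, 54.2 and a value below the floor at 24 months, against 261, 130, 100.1 and 165 at 18 months (at least 3.08-fold lower, adjusted p = 0.0185). Dio1, which converts thyroxine to its active form, had 52.9, 53.1, 99.3 and 50.1 at 24 months, against 119, 129, 115 and 145 at 18 months (2.07-fold lower, adjusted p = 0.0185), and Crym, which binds thyroid hormone in the cytosol, was at least 2.41-fold lower. The groups did not overlap for these 4 genes.

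Others act on lipids. Hao2, a peroxisomal hydroxyacid oxidase, had signals of 352, 552, 208 and 349 at 24 months, against 1965, 1706, 1159 and 2149 at 18 months (4.93-fold lower, adjusted p = 9.52e-05). Enpp2, which makes lysophosphatidic acid in plasma, was 2.5-fold lower (401 to 673 at 24 months, against 1162 to 1695 at 18 months). Lipa, the lysosomal acid lipase, was 1.78-fold higher (1526 to 2251 at 24 months, against 946 to 1204 at 18 months), and Mttp, which loads lipid onto apolipoprotein B, was 1.48-fold higher (1543 to 2066 at 24 months, against 1143 to 1324 at 18 months).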
